A study of Rattus norvegicus with 8 samples.

Results

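The genes described here are 10 members of the protein prenylation pathway: 3 enzymes (Ggps1, Fntb and Pggt1b) and 7 small GTPases that need a lipid tail to work (Rhoa, Rhob, Rhoc, Rac1, Cdc42, Rap1a and Rap1b). They were chosen by name, not by a cut on their values, though with earlier results of these data known. All 10 were listed in every one of the 8 libraries, among 12282 genes listed in at least 1 library and 10849 listed in all 8. A unique molecular identifier (UMI) marks each captured transcript. Levels are given as CPM, the number of UMIs of a gene per 1000000 UMIs of the library, over all cell barcodes that had at least 5000 UMIs.

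The mevalonate pathway makes farnesyl diphosphate, and Ggps1 (geranylgeranyl diphosphate synthase) lengthens it to geranylgeranyl diphosphate. Farnesyltransferase, whose catalytic beta subunit is Fntb, attaches the shorter lipid to proteins that end in a CAAX motif, and geranylgeranyl transferase I, whose beta subunit is Pggt1b, attaches the longer lipid to most of the GTPases described here. The lipid anchors these GTPases in membranes, where they switch the actin cytoskeleton, adhesion and vesicle traffic. Nitrogen-containing bisphosphonates such as zoledronate inhibit Fdps (farnesyl diphosphate synthase), the step that feeds both lipids, so their direct biochemical effect falls on the lipidation of the proteins, which an RNA count does not measure.

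The libraries hold cells from the healing callus around a femoral fracture in Sprague Dawley rats, taken 4 or 12 weeks after a closed break. The control group is labelled untreated, a group labelled with zoledronate is called zoledronate here, and groups labelled with zoledronate plus CGRP (calcitonin gene-related peptide, a neuropeptide) or zoledronate plus magnesium are called CGRP and magnesium. Each treatment at each week is 1 library, so no difference between libraries has a replicate check and none was tested. Zoledronate was given under the skin at 0.3 mg/kg each week for 12 weeks before the fracture, per the labels, which attach this text to every sample, the control included. Fixation was by an intramedullary nail, either stainless steel or containing Mg, and the labels do not assign the nails to groups. They give neither the dose and route of CGRP nor the number of animals behind a library. The released cells were kept in a dish for 24 h before sequencing.

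After the minimum of 5000 UMIs, 65208 of 69624 barcodes remained, with 139656712 to 159685281 UMIs a library and a median of 12742 to 20545 UMIs a barcode. Among the kept barcodes 464 sequences occurred in 2 or more libraries. All 10 fibroblastic markers (such as Col1a1, Dcn and Pdgfra) reached 10 CPM in at least 1 library, and their summed level was 36562 to 57959 CPM. Of 10 macrophage and osteoclast markers Ctsk and Acp5 reached 10 CPM, Adgre1 and the osteoclast fusion genes Ocstamp and Dcstamp were listed nowhere, and Csf1r reached at most 0.526 CPM. The endothelial list summed to at most 5.89 CPM, and 5 of 6 blood markers were listed nowhere. Bisphosphonates are best known to act on these GTPases in osteoclasts, and of that cell's markers Ocstamp and Dcstamp were listed nowhere, while Ctsk was at 50.8 to 150 CPM and Acp5 at 7.49 to 21.5 CPM. The summed fibroblastic list was high in every library, but Dcn ranged from 2.28 to 355 CPM and Lum from 6.09 to 218 CPM. The smooth muscle list summed to 1786 to 4872 CPM, the osteoblastic list to 270 to 1176 CPM and the chondrocytic list to 80.7 to 316 CPM. Spp1 alone made up most of the osteoblastic sum, at 248 to 1115 CPM. Of the 8 osteoblastic markers 3 reached 10 CPM in any library and 4 stayed under 1 CPM in all. Of the 7 chondrocytic markers 4 reached 10 CPM, Matn1 and Col10a1 were listed nowhere, and Col2a1 reached at most 0.0733 CPM. Doublets were not removed.

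The members fell into a group of at least 100 CPM in every library (Rhob, Rhoc, Rac1, Cdc42 and Rap1a) and a group of at most 12.3 CPM in every library (Ggps1, Fntb, Pggt1b, Rhoa and Rap1b). Levels of different genes are not compared further, since capture of a transcript end differs between genes. Between the highest and the lowest library Ggps1 differed 1.16-fold, Rap1a 1.18-fold, Rhoc 1.31-fold, Rap1b 1.32-fold, Cdc42 1.35-fold, Pggt1b 1.60-fold, Rhoa 1.65-fold, Rhob 1.67-fold, Rac1 1.86-fold and Fntb 3.25-fold. Over the 5914 genes listed in all 8 libraries with a mean of at least 10 CPM, the median of this ratio was 1.43. For Ggps1, Pggt1b and Rap1b, the 95% Poisson intervals of neighbouring libraries in the order of their levels overlapped at all 7 steps, so no order of the libraries can be given for them. Such intervals cover counting error only.

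**Figure D1:**
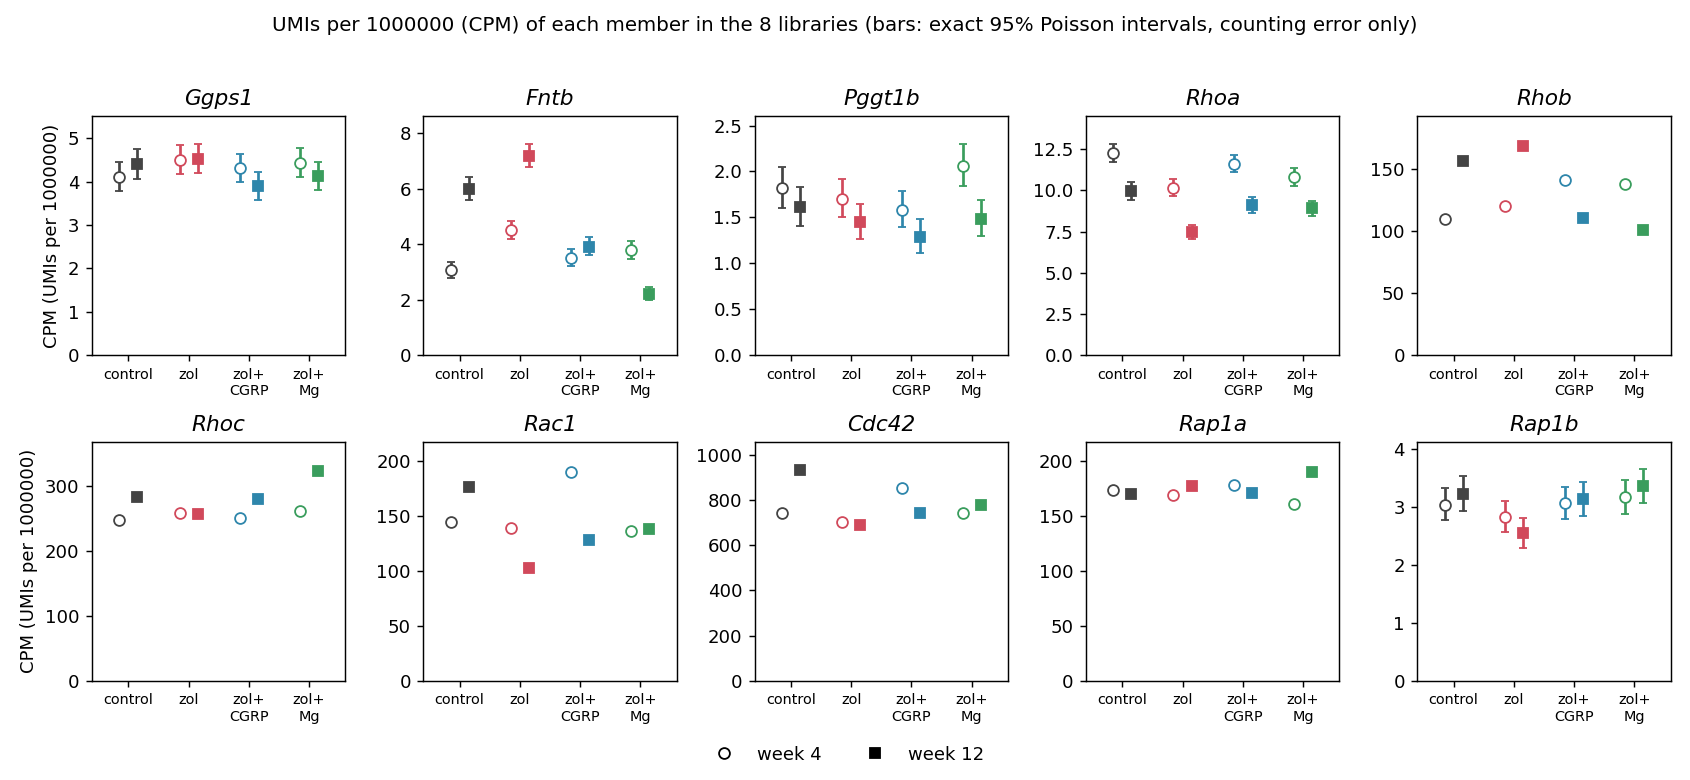
Level of each member (CPM, axis from 0, a separate scale for each gene) in the 4 treatments at week 4 (open circles) and week 12 (filled squares), 1 library a point, with exact 95% Poisson intervals that cover counting error only. Ggps1 stays between 3.89 and 4.53 CPM while Fntb spans 2.22 to 7.19 CPM, and Rhoa at week 12 lies under its week 4 value in all 4 treatments.

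Among the enzymes, Ggps1 hardly differed between libraries. Its level was 4.10 CPM in control, 4.49 in zoledronate, 4.31 in CGRP and 4.43 in magnesium at week 4, and 4.40, 4.53, 3.89 and 4.12 at week 12. Each of these 8 values rests on 572 to 706 UMIs. Of the 10 comparisons made here, only CGRP against zoledronate at week 12 had a Ggps1 ratio whose interval excluded 1, at 0.859-fold (95% interval 0.768 to 0.960). Pggt1b stood at 1.82, 1.70, 1.58 and 2.06 CPM in control, zoledronate, CGRP and magnesium at week 4 and 1.61, 1.45, 1.28 and 1.48 CPM in the same order at week 12. Its week 12 value was under its week 4 value in all 4 treatments. The interval of that ratio excluded 1 in magnesium (0.720-fold, 0.606 to 0.856) and in CGRP (0.812-fold, 0.668 to 0.985), and included it in control and zoledronate.

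Fntb varied most of the 10 members. It stood at 3.06 CPM in control, 4.51 in zoledronate, 3.51 in CGRP and 3.79 in magnesium at week 4. At week 12 it stood at 6.0 in control, 7.19 in zoledronate, 3.92 in CGRP and 2.22 in magnesium. The control and zoledronate libraries of week 12 were above all others, and magnesium at week 12 was below all others, with no overlap of the intervals at either end. These values rest on 354 to 1122 UMIs. Fnta, the alpha subunit that Fntb shares its enzyme with, lay between 51.8 CPM (zoledronate, week 12) and 67.5 CPM (CGRP, week 4), and its lowest library was the highest for Fntb.

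Of Rhoa, Rhob and Rhoc, Rhob was the most variable. RhoB sits on endosomes and the plasma membrane, carries either lipid, and is encoded by a gene that responds quickly to growth factors and stress. Rhob stood at 110 CPM in control, 120 in zoledronate, 141 in CGRP and 138 in magnesium at week 4. At week 12 it stood at 157 in control, 168 in zoledronate, 110.1 in CGRP and 101 in magnesium. Control and zoledronate were thus higher at week 12 than at week 4, CGRP and magnesium were lower, and the 2 highest and the lowest of the 8 libraries were all from week 12. The intervals of neighbouring libraries overlapped at only 2 of 7 steps.

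Rhoa, the main activator of stress fibre contraction, was counted at a low level for a gene known to be widely expressed. It stood at 12.3 CPM in control, 10.2 in zoledronate, 11.6 in CGRP and 10.8 in magnesium at week 4, and at week 12 it was 9.95, 7.45, 9.10 and 8.91 CPM in the same order. The week 12 library was lower in 4 of 4 treatments, with log2 ratios of -0.28 in control, -0.40 in zoledronate, -0.32 in CGRP and -0.25 in magnesium, and all 4 intervals of the ratios excluded 1. An exact sign-flip permutation test over 4 pairs cannot give a p below 0.125, so none was made. Rhoc, which is tied to cell motility, ranged from 248 CPM (control, week 4) to 323 CPM (magnesium, week 12). It was 248, 259, 250 and 263 CPM in control, zoledronate, CGRP and magnesium at week 4 and 284, 257, 281 and 323 CPM at week 12, so only magnesium at week 12 stood apart from all others.

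Rac1, which drives sheet-like protrusions of the cell edge and takes part in cell cycle progression, stood at 144 CPM in control, 138 in zoledronate, 190 in CGRP and 136 in magnesium at week 4. At week 12 it stood at 176 in control, 102 in zoledronate, 128 in CGRP and 138 in magnesium. CGRP at week 4 and control at week 12 were the highest, zoledronate at week 12 was the lowest, and the intervals of these 3 overlapped with no other library. Cdc42, which sets cell polarity and filopodia, was highest in 1 of the same libraries, control at week 12, at 932 CPM, followed by CGRP at week 4 at 856. The other values of Cdc42 were 743 in control, 704 in zoledronate and 744 in magnesium at week 4, and 689 in zoledronate, 742 in CGRP and 777 in magnesium at week 12. Its lowest library, zoledronate at week 12, was also the lowest for Rac1 and Rhoa. The same library had the lowest value of Rap1b, but there its interval overlapped that of zoledronate at week 4.

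The Rap proteins regulate integrin adhesion and cell junctions. Rap1a stood at 174, 169, 178 and 161 CPM in control, zoledronate, CGRP and magnesium at week 4, and at week 12 its levels were 170, 177, 170.4 and 190 CPM, so that over the 8 libraries magnesium was lowest at week 4 and highest at week 12. Rap1b stood between 2.55 CPM (zoledronate, week 12) and 3.36 CPM (magnesium, week 12), on 397 to 536 UMIs. By the RefSeq gene names of the rat assembly GRCr8, Rap1b has 4 annotated pseudogene copies, Rhoa and Cdc42 have 1 each, Rac1 has a copy named Rac1l, and Rap1al overlaps Rap1a. Reads of these members could have been split or lost among copies in counting, which was not tested, so the low level of Rhoa and Rap1b is uncertain. Tcta overlaps Rhoa, and Ggps1, Fntb, Pggt1b, Rhob and Rhoc have neither an overlapping gene nor a copy by these names.

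The promoters of the 2 members with the largest differences that have an entry in the RefSeq promoter table (Fntb and Rhob) and of Cdc42, which holds the element of cAMP response in full, are shown because CGRP is known to raise cAMP in its target cells. They are the 250 bases before the annotated start on the strand of the gene, in assembly GRCr8: Fntb at chr6:101269472-101269721 (plus strand), Rhob at chr6:37085205-37085454 (minus strand) and Cdc42 at chr5:154876512-154876761 (minus strand). Capitals mark the motif CCAAT on either strand. They also mark, on either strand, the cAMP motif TGACG.
Fntb: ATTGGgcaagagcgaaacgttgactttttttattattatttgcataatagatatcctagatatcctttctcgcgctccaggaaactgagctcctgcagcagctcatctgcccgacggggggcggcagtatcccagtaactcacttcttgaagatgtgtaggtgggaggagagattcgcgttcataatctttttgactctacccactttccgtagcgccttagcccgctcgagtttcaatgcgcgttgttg
Rhob: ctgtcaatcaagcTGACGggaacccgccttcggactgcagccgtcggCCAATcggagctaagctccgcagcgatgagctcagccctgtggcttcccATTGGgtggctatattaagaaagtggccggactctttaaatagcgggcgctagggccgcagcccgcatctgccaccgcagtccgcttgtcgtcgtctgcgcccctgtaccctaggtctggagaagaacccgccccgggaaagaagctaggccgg
Cdc42: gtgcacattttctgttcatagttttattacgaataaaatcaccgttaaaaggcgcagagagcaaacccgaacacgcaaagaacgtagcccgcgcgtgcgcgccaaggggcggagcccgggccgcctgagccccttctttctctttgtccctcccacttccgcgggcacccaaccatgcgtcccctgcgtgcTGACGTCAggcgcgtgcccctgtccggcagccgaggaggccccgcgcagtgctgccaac

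Of the 10 members 9 had an entry, and Rac1 did not. CCAAT occurred in the 250 bases of 4 of the 9 and in 34.0% of all 33469 windows of that length. TGACG, the short form of the cAMP element, occurred in 4 of the 9 (Rhob, Rhoc, Cdc42 and Rap1b) and in 18.2% of all windows. Its full form TGACGTCA, which contains the short form on both strands, occurred in Cdc42 and Rap1b and in 1.59% of all windows. GGGCGG occurred in 6 of the 9 and in 30.5% of all windows. These are matches of letters and were not set against the members' levels.

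For each comparison, a member was counted as apart when its log2 ratio of CPM + 1 was at least 1.5-fold in either direction, and the share of all genes with a mean of at least 10 CPM that were as far apart is given beside the count. Over 10 members and 10 comparisons, 6 of 100 ratios were at least 1.5-fold. The intervals of 73 of the 100 ratios excluded 1, which at this depth says little about treatments, since they leave out the spread between animals and libraries.

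**Figure D2:**
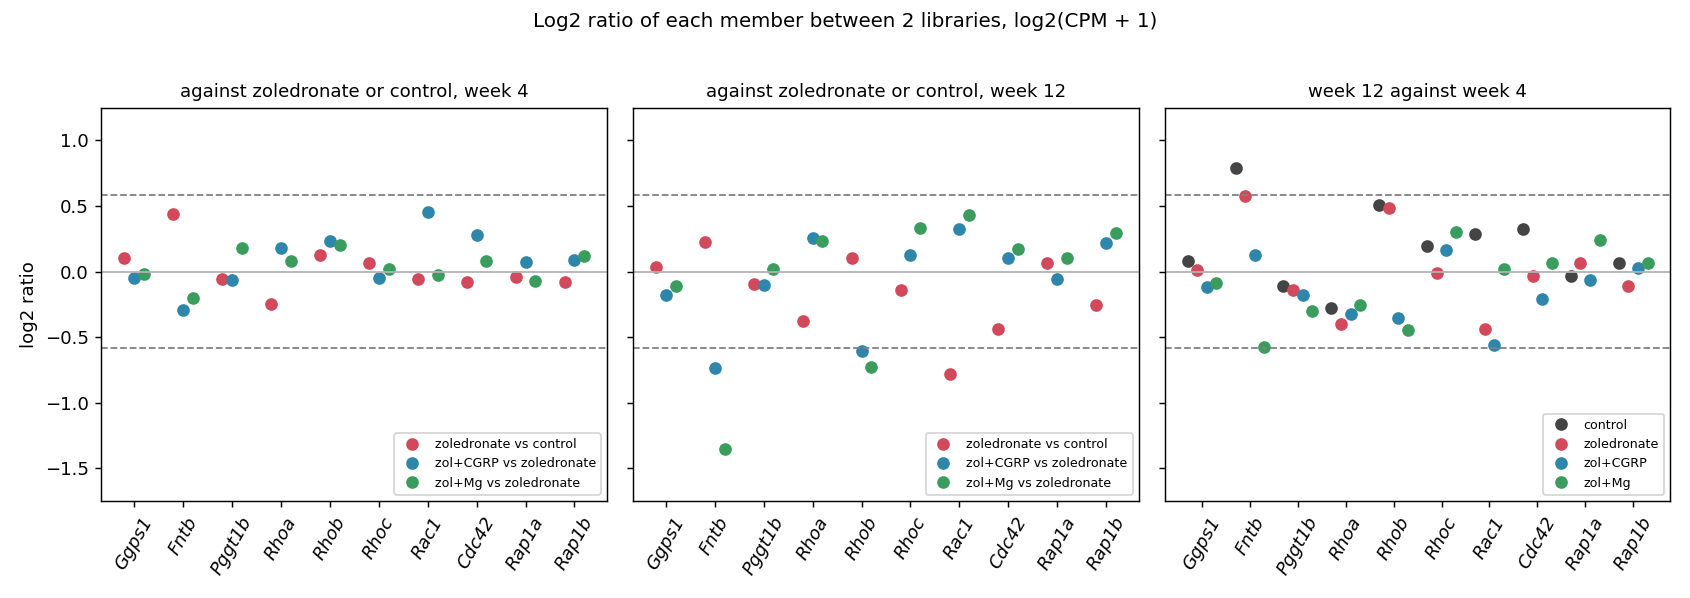
Log2 ratio of CPM + 1 of each member for treatments at week 4, treatments at week 12 and week 12 against week 4, 1 library against 1 library a point; dashed lines mark 1.5-fold. In the treatment comparisons no point of week 4 passes a dashed line, while at week 12 Rac1 (zoledronate against control) and Fntb and Rhob (CGRP and magnesium against zoledronate) do.

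Zoledronate was set against control to describe the members with and without the drug. At week 4, 0 of 10 members were at least 1.5-fold apart, where 2.36% of 5920 genes were. The member closest to that size was Fntb, higher in zoledronate (4.51 against 3.06 CPM, 1.47-fold, 95% interval 1.31 to 1.66), and Rhoa was the lowest (0.829-fold, 0.775 to 0.887). At week 12, 1 of 10 was, against 16.9% of 5908 genes: Rac1, whose level with zoledronate (102 CPM) lay below that of control (176 CPM; 0.581-fold, 0.569 to 0.592; log2 ratio -0.78). The next largest ratios were Cdc42 (log2 -0.43), Rhoa (-0.37), Rap1b (-0.25) and Fntb (0.23). The median of all genes was itself at -0.12 in this comparison, and with edgeR's TMM factors, which move it, the Rac1 ratio was -0.65. The share of all genes counts only those with a mean of at least 10 CPM. Of the 5 members with such a mean at week 12, 1 was apart, too few to tell their share from that of all genes.

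CGRP was set against zoledronate, both groups having had the drug. At week 4, 0 of 10 members were at least 1.5-fold apart and 9.69% of 5875 genes were; Rac1 had the largest ratio (1.37-fold higher in CGRP, 1.35 to 1.40), with Cdc42 1.22-fold higher. At week 12, 2 of 10 were, and 9.72% of 5784 genes. Of the 5 members with a mean of at least 10 CPM, 1 was. Fntb was at 3.92 CPM in CGRP and 7.19 in zoledronate (0.544-fold, 0.491 to 0.602), and Rhob at 110.1 and 168 CPM (0.655-fold, 0.642 to 0.668). Rac1 was again higher in CGRP, at 1.26-fold.

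Magnesium was set against zoledronate, the comparison the title of the series puts first. At week 4, 0 of 10 members were at least 1.5-fold apart, where 1.05% of 5905 genes were, and the log2 ratios lay between -0.20 (Fntb) and 0.20 (Rhob). At week 12, 2 of 10 were, where 10.9% of 5866 genes were, and they were again Fntb and Rhob. Of the 5 members with a mean of at least 10 CPM, 1 was, Rhob. Fntb was at 2.22 CPM in magnesium against 7.19 in zoledronate (0.308-fold, 0.273 to 0.348; log2 ratio -1.35), the largest ratio of any member here. Rhob was at 101 against 168 CPM (0.600-fold, 0.589 to 0.612). The CGRP and magnesium comparisons share the zoledronate libraries, so their ratios are not independent. Set against control at week 12 instead, Fntb was 0.652-fold in CGRP and 0.369-fold in magnesium, and Rhob was 0.703-fold and 0.645-fold.

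Week 12 was set against week 4 within each treatment. In control 1 of 10 members was at least 1.5-fold apart, Fntb, which was 1.96-fold higher at week 12 (1.75 to 2.20), where 12.1% of 5979 genes were. Of the 6 members with a mean of at least 10 CPM there, 0 were. In zoledronate 0 of 10 were (7.77% of 5845 genes), in CGRP 0 of 10 (13.8% of 5838 genes) and in magnesium 0 of 10 (10.3% of 5937 genes). Fntb lay close to that size in zoledronate (1.60-fold higher) and in magnesium (0.585-fold), and passes it there when no pseudocount is added. Rhob was 1.43-fold higher at week 12 in control and 1.40-fold higher in zoledronate, and 0.782-fold in CGRP and 0.732-fold in magnesium. Rac1 was higher at week 12 in control (log2 0.28), lower in zoledronate (-0.44) and CGRP (-0.56), and within 0.02 of no difference in magnesium.

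The share of dividing cells was set beside the Rac1 levels of the libraries. A cell was called dividing when it had at least 5 UMIs of a 20-gene mitosis list, 19 of them listed, after every cell was thinned to 5000 UMIs. By that count 25.4% of cells were dividing in control, 16.3% in zoledronate, 40.0% in CGRP and 18.0% in magnesium at week 4, and 31.5%, 4.37%, 12.5% and 12.8% at week 12. CGRP at week 4, control at week 12 and control at week 4 were the 3 highest libraries, in that order, for dividing cells and for Rac1, and CGRP and zoledronate at week 12 were the 2 lowest for both. Among the remaining libraries Rac1 lay between 136 and 138 CPM, while the share of dividing cells ran from 12.8% to 18.0%. In cells with 0 UMIs of the mitosis list alone, Rac1 at week 12 was 95.8 CPM with zoledronate against 141 CPM without. Its ratio there was 0.679-fold, just short of 1.5-fold lower, where it was 0.581-fold over all cells (log2 -0.55 against -0.78). In the same cells Rac1 was 160 CPM in CGRP at week 4 and 124 in zoledronate (1.29-fold against 1.37-fold over all cells). The 3 highest and the 2 lowest libraries for Rac1 were the same in these cells as over all cells. The part of dividing cells in the Rac1 ratios between libraries was not tested.

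**Figure D3:**
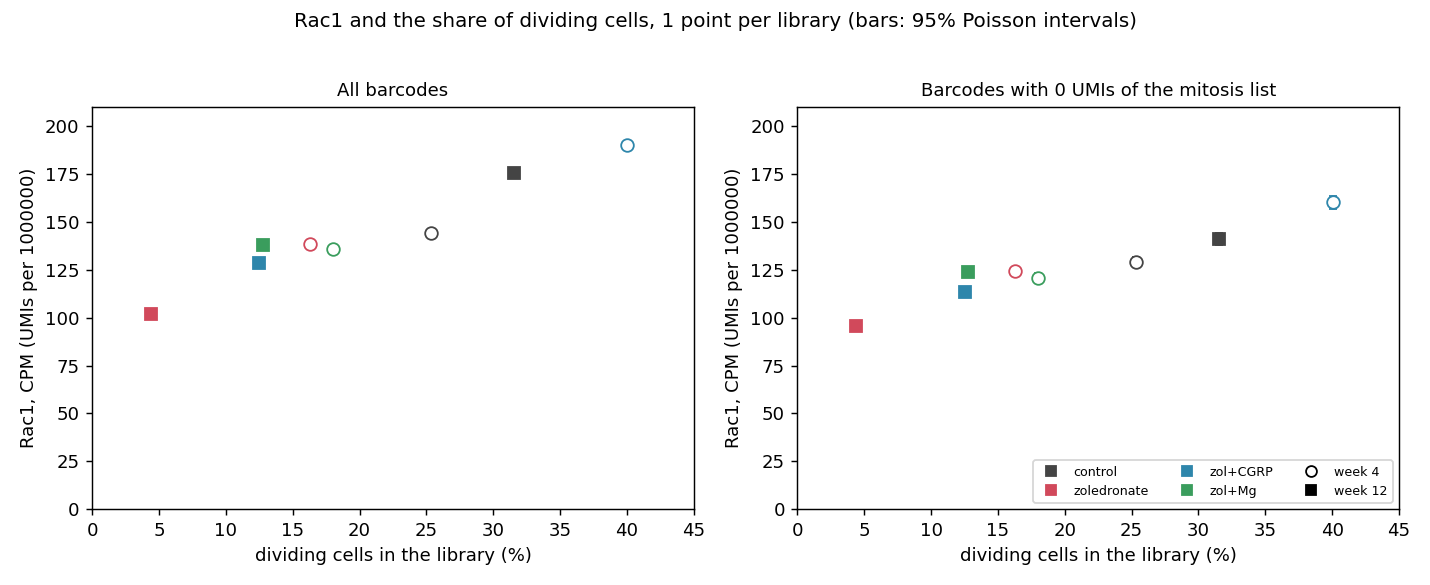
Rac1 (CPM, with exact 95% Poisson intervals) against the share of dividing cells (%) in the 8 libraries, over all barcodes (left) and over barcodes with 0 UMIs of the mitosis list (right). Zoledronate at week 12 is lowest and CGRP at week 4 highest on both axes and in both panels, and the span of Rac1 is 102 to 190 CPM on the left and 95.8 to 160 on the right.

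Dividing and other cells were then compared within each library, which is the comparison that the 8 libraries can test. Cells with 0 UMIs of the list were the other cells, the list itself was left out of the totals, and an exact two-sided sign-flip permutation test was made over the 8 libraries on all 9072 genes listed in every library with a mean of at least 1 CPM, with Benjamini-Hochberg adjustment over all of them. Of the 10 members 4 passed, all higher in dividing cells, but 64.0% of all genes tested passed too (3758 higher and 2048 lower), so this share is not above that of all genes. The median of all genes was 0.09 higher on the log2 scale.

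Rac1 was the member furthest apart. In dividing and other cells it stood at 176 and 131 CPM in control at week 4, 214 and 135 in control at week 12, 192 and 124 in zoledronate at week 4 and 175.9 and 95.6 in zoledronate at week 12. In CGRP it stood at 217 and 163 at week 4 and 189 and 115 at week 12, and in magnesium at 179 and 125 at week 4 and 196 and 127 at week 12. It was higher in dividing cells in 8 of 8 libraries, the lowest dividing value (175.9) lying above the highest value in other cells (163), with a mean log2 ratio of 0.61 ± 0.15 (SD, n = 8 libraries; exact permutation p = 0.0078, the smallest 8 libraries can give; adjusted p = 0.015). Rap1a had a mean log2 ratio of 0.23 ± 0.076 and Cdc42 of 0.20 ± 0.074 (SD, n = 8; both higher in 8 of 8 libraries, exact permutation adjusted p = 0.015). Rhoa was higher in 7 of 8 libraries, with a mean of 0.19 ± 0.16 (SD, n = 8; exact permutation adjusted p = 0.038), and its call was lost (adjusted p 0.052 to 0.073) when any library but magnesium at week 12 was left out. The other 6 members did not pass: Ggps1 had a mean of 0.07 ± 0.38, Pggt1b 0.07 ± 0.34, Fntb 0.00 ± 0.38, Rhoc 0.03 ± 0.11, Rhob -0.05 ± 0.13 and Rap1b -0.08 ± 0.26 on the log2 scale (SD, n = 8). When each library was centred on the median of all genes, Rac1 (0.50), Rap1a (0.13) and Cdc42 (0.10) kept their calls, Rhoa (0.09) lost it, and Rhob passed as lower in dividing cells (-0.16, exact permutation adjusted p = 0.027).

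**Figure D4:**
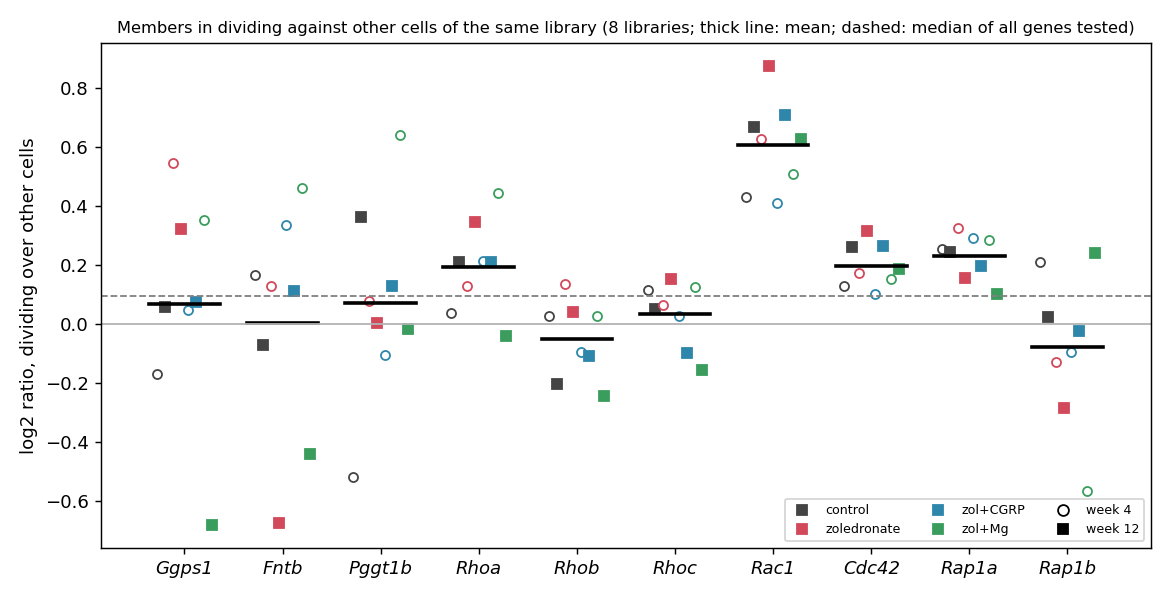
Log2 ratio of each member in dividing against other cells of the same library, 1 point a library (open circles week 4, filled squares week 12), with the mean over 8 libraries (thick line) and the median of all genes tested (dashed line, 0.09). All 8 points of Rac1, Cdc42 and Rap1a are above 0, and those of Rac1 are above 0.40, while the low members Ggps1, Fntb, Pggt1b and Rap1b scatter on both sides.

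At 5000 UMIs a cell, the cell-to-cell variance of a member divided by its mean, which is 1 for Poisson counts, reached 1.36 for Cdc42 and was 1.11 to 1.20 for Rhob, 1.08 to 1.15 for Rhoc and 1.06 to 1.14 for Rac1 over the 8 libraries. Rap1a, at a level like that of Rac1, had 0.996 to 1.04. For the 5 low members it lay between 0.98 and 1.05. This quotient moves towards 1 as a gene's level falls, whatever its spread among cells, so members at different levels are not ranked by it and the values of the 5 low members say nothing about their spread.

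Genes whose levels followed those of a member most closely over the 8 libraries were sought for the 3 members that were at least 1.5-fold apart, by Pearson's r of log2(CPM + 1). For Fntb they were Tmem141 (r = 0.96), Ccnc (0.95) and Arl8b (0.93), and 12 of 5914 genes reached 0.9. For Rhob they were Hspe1 (0.97), Bola3 (0.96) and Zdhhc2 (0.95), and 27 genes reached 0.9. For Rac1 they were Dazap1 (0.99), Bysl (0.99) and Msto1 (0.99), and 438 genes reached 0.9, far more than for Fntb or Rhob. The genes named are the highest of all genes compared over only 8 points. How many genes would reach 0.9 by chance was not worked out. All of these values share the same 8 libraries and totals.

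Upstream of the members, 6 of the 7 genes that make farnesyl diphosphate had a mean of at least 10 CPM. With zoledronate all 6 were below control at week 4 (median log2 ratio -0.21, 0 at least 1.5-fold, median of all genes -0.01) and at week 12 (median -0.62, 4 of 6 at least 1.5-fold lower, where 11.8% of all genes were, median of all genes -0.12). The other gene, Mvk, was at 6.74 against 8.11 CPM at week 4 and at 7.59 against 7.35 CPM at week 12. The largest at week 12 were Mvd, the decarboxylase of the pathway, at 13.5 against 27.7 CPM, and Idi1, the isomerase, at 93.4 against 158 CPM. Against zoledronate at week 12, all 6 were higher in CGRP (median 0.47, Mvd at least 1.5-fold higher, where 4.74% of all genes were). All 6 were also higher in magnesium (median 0.34, 0 at least 1.5-fold). At week 4, 5 of 6 were higher in CGRP (median 0.13) and all 6 were lower in magnesium (median -0.08), with 0 at least 1.5-fold apart in either. Fdps itself, the target of zoledronate, stood at 474 CPM in control, 385 in zoledronate, 426 in CGRP and 365 in magnesium at week 4, and at week 12 it was 368, 276, 365.1 and 340 CPM in the same order. Within libraries, Idi1 was higher in dividing cells in 8 of 8 (mean log2 0.46) and 3 of 7 supply genes passed as higher, where 3758 of 9072 genes did, while Fdps had a mean log2 ratio of -0.0081. The part of dividing cells in the ratios between libraries was not tested for this list. The enzymes that trim and methylate the CAAX end (Rce1, Icmt and Zmpste24) were within 1.5-fold in every comparison but Zmpste24 in CGRP, at 12.4 CPM at week 12 and 20.3 at week 4. The other transferase subunits and escorts and the other users of farnesyl diphosphate had 0 genes at least 1.5-fold apart in all 10 comparisons.

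Other prenylated GTPases were compared by family. In the Ras list 6 of 10 measured genes were below control with zoledronate at week 12, and 1 of them was at least 1.5-fold lower, Rras2, at 60.8 against 157 CPM. Of all genes 11.8% were lower by that size there. Of 12 Rab genes, which use the third transferase, 0 were at least 1.5-fold apart in the 6 treatment comparisons. Across those comparisons 1.05% to 16.9% of all genes were. Of 5 measured GDIs and prenyl chaperones, which hold the lipid tail in the cytosol, only Rap1gds1 was at least 1.5-fold apart. It was at 38.8 CPM in CGRP and 67.2 in zoledronate at week 4, where 5.12% of all genes were lower by that size.

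Among regulators, the exchange factor Ect2 and the activating protein Racgap1, which work together on RhoA in the cleavage furrow of dividing cells, had mean log2 ratios of 4.87 and 4.25 in dividing against other cells (8 of 8 libraries, exact permutation adjusted p = 0.015). The cells had been sorted by mitosis genes, so the result for these genes of division is not independent of the sorting. Of all genes tested, 64.0% passed too. At week 12 Ect2 was 7.64 CPM with zoledronate against 38.9 in control. Of 16 measured effectors of the members 5 were at least 1.5-fold lower with zoledronate at week 12 and 0 higher, where 11.8% of all genes were lower and 5.04% higher (median log2 -0.24 against -0.12 for all genes), led by Iqgap1, a scaffold that binds Rac1 and Cdc42, at 31.7 against 65.5 CPM, and by Diaph1, a formin that builds actin filaments, at 33.1 against 56.2 CPM. Against zoledronate at week 12, 3 of 16 were at least 1.5-fold higher in magnesium, where 6.92% of all genes were, led by Diaph1 (57.9 CPM) and Iqgap1 (55.2 CPM). Of 7 measured SRF and YAP target genes, which respond to actin assembly, 4 were at least 1.5-fold higher at week 12 than at week 4 in control, where 8.01% of all genes were, with Cnn1 at 385 against 75.8 CPM. In each of the other 3 treatments 1 of 7 was, Cnn1, where 3.15% (zoledronate), 6.39% (CGRP) and 6.08% (magnesium) of all genes were. With zoledronate against control 2 of 7 were at least 1.5-fold higher at week 4, where 1.18% of all genes were. At week 12, 1 was higher and 1 lower, where 5.04% and 11.8% of all genes were. In CGRP against zoledronate 3 of 7 (week 4) and 2 of 7 (week 12) were lower by that size. The shares of all genes that were lower by that size were 5.12% and 4.98%. In magnesium against zoledronate 0 of 7 were apart at week 4 (1.05% of all genes) and 1 was higher at week 12 (6.92%). Rhoa RNA was lower at week 12 in the same 4 treatments. A link of its level with these genes was not tested, and Acta2 and Cnn1 are also on the smooth muscle marker list.

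The immediate early genes were counted because Rhob behaves as such a gene in many cells, and because tissue digestion is known to induce them. Their median log2 ratio at week 12 against week 4 was 0.57 in control, 0.25 in zoledronate, -0.27 in CGRP and -0.53 in magnesium, in the same directions as Rhob. Against zoledronate it was 0.43 in CGRP and 0.53 in magnesium at week 4, where Rhob was also higher. At week 12 it was 0.32 in CGRP and 0.02 in magnesium, where Rhob was lower. In zoledronate against control it was -0.04 at week 4 and -0.19 at week 12, where Rhob was 1.09-fold and 1.07-fold higher. In magnesium 10 of 15 measured genes were lower at week 12, 5 of them at least 1.5-fold, where 4.18% of all genes were. The other 5 were higher, 2 of them at least 1.5-fold, where 6.08% of all genes were. Nr4a1 was the furthest of the higher genes, at 64.4 CPM at week 12 and 19.7 at week 4. The part of these genes in the Rhob values was not tested.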

How the data were processed

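The measurements are single-cell RNA-seq counts of callus cells, 8 libraries with 1 library per treatment and week. The authors deposited 1 table of whole-number UMI counts per library, genes by cell barcodes. STAR and the genome build Rnor_6.0 are named per the submitters' processing notes, while the version of STAR, the annotation, cell calling and filters are not stated there (not given in the sources used here). Each table lists 11460 to 11605 genes, and no deposited column belongs to another sample (0 left out).

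Barcodes with at least 5000 UMIs were kept, UMIs were summed per library and scaled to 1000000 (CPM), and ratios are differences of log2(CPM + 1). Intervals are exact 95% Poisson intervals for levels and exact conditional intervals for ratios, and they cover counting error only. With 1 library per group, no test was made between libraries. Between dividing and other cells of the same library, after thinning each barcode to 5000 UMIs, an exact two-sided sign-flip permutation test was made over 8 libraries, with Benjamini-Hochberg adjustment over all 9072 genes tested. The adjustment had been planned over the 10 members, under which Rhoa would not pass.

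On simulated libraries, the 1.5-fold count for zoledronate against control at week 12 recovered 100% of 200 genes changed 2-fold among 5914. The sign-flip test recovered 100% of 200 genes changed 1.5-fold among 9055 when 50% of the other genes also changed, 90% of 200 genes changed 1.25-fold among 9047 in the same setting, and 0% of 199 genes changed 1.5-fold when no other gene did, because the smallest p of 8 libraries passes the adjustment only where many genes move. In the first simulation the libraries differed by counting error only, so recovery of a 2-fold change at a 1.5-fold cut was near certain beforehand. The genes set to change all had a mean of at least 10 CPM. The rates therefore do not apply to Ggps1, Fntb, Pggt1b and Rap1b, whose ratios in dividing cells had SDs of 0.26 to 0.38. Members below 10 CPM were described but are not in the background shares.

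The members and gene lists were chosen with earlier results of these data known. Besides all members, the genes named are, in each list and comparison, up to 2 of those 1.5-fold apart or more (largest ratio, mean of 10 CPM or more), and 3 by Pearson's r for each member that was at least 1.5-fold apart; Fdps and Fnta fall outside this rule and were chosen after their values were seen. Alternatives covered the minimum UMIs, edgeR 4.0.16 (TMM) and DESeq2 1.42.0 scaling factors, thinning, the pseudocount, cells without mitosis UMIs and the cut for dividing cells. Python 3.11.15, NumPy 2.4.6, SciPy 1.17.1 and R 4.3.3 were used. Promoter sequences and gene names are from RefSeq (GRCr8), whose coordinates were not joined to the counts. The results of 1 gene list are not reported here.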

Additional observations from a re-analysis of the deposited data

Results flagged for a closer look

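Some members differed in opposite directions under the same contrast, with both counting intervals excluding 1 and the log2 ratios at least 1.5-fold from each other. With 1 library per group these differences were not tested. For week 12 against week 4, the log2 ratio of Fntb in control exceeded that in magnesium by 1.36, and that in zoledronate exceeded it by 1.15. For Rhob the same contrast in control exceeded CGRP by 0.86 and magnesium by 0.96, and in zoledronate it exceeded CGRP by 0.84 and magnesium by 0.93. The Rhob ratio of CGRP to zoledronate was 0.84 higher at week 4 than at week 12, and that of magnesium to zoledronate was 0.93 higher. For Rac1, week 12 against week 4 in control exceeded zoledronate by 0.72 and CGRP by 0.85. The zoledronate library of week 12 enters several of these values, so they are not independent.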

How the results depend on the processing

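All 6 ratios of at least 1.5-fold kept their direction under the 7 alternatives tried, and 4 of them kept their size in cells with 0 UMIs of the mitosis list, where Rac1 in zoledronate against control at week 12 was -0.55 and Rhob in CGRP against zoledronate at week 12 was -0.58. In those cells the count of members at least 1.5-fold apart was 0 in the first of these comparisons and 1 in the other. With every barcode thinned to 5000 UMIs the count was 1 in zoledronate against control at week 4 (Fntb, 0.67). For week 12 against week 4, Fntb made the count 1 in zoledronate with barcodes of at least 10000 UMIs, edgeR's TMM factors, DESeq2 size factors, no pseudocount (0.67) or cells with 0 UMIs of the mitosis list, and 1 in magnesium with all deposited barcodes, thinning or no pseudocount (-0.77). In magnesium against zoledronate at week 4 the share of all genes at least 1.5-fold apart was 0.632% at a mean of at least 50 CPM, against 1.05%.

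In dividing against other cells 4 members passed under each cut, unthinned and centred on the median of all genes, an alternative chosen after seeing the data, though after centring Rhob stood in the place of Rhoa. The count was 3 to 4 when each library was left out. Members that did not pass changed sign around 0: Fntb (-0.037) and Rap1b (0.020) at a cut of 3 UMIs, Rhoc (-0.013) at 10 UMIs, Rap1b (0.091) unthinned, and Ggps1 (-0.034), Fntb (-0.10), Pggt1b (-0.032) and Rhoc (-0.068) after centring. Leaving out each library gave -0.064 to 0.10 for Fntb and -0.011 to 0.15 for Pggt1b. For the 5 low members the intervals of a level reached up to 15.3% above it, against at most 5.03% for values of at least 10 CPM.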
